A study of Homo sapiens with 5 samples.

Results

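Jurkat and Raji are the lymphoid pair among 5 hematopoietic cell lines whose microRNAs (miRNAs) were counted with the nCounter assay, in which a color-coded reporter is counted for each miRNA without amplification. These 2 of the 5 samples were chosen by their labels. Jurkat is a T-lymphoblastic line from a T-cell leukemia, and Raji is a B-lymphoblastic line from a Burkitt lymphoma that is known to carry Epstein-Barr virus. Both were untreated, both enter with 100 ng of total RNA, and each is represented by 1 sample, which leaves no replicate check and no test of a difference. Each is a transformed clone and stands for that clone rather than for T-cells or B-cells at large. The 3 other lines, Meg-01, U937 and K562, were used only to place the pair.

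A mature miRNA guides the silencing complex to messenger RNAs that pair with its seed, bases 2 to 8, so that miRNAs with 1 seed can act on overlapping targets. Many miRNAs are cut from shared transcripts of several hairpins, such as the miR-17-92 cluster. In lymphocytes, miR-181a is abundant in thymocytes and tunes antigen receptor signaling, miR-150 accumulates in mature lymphocytes and lowers MYB, and miR-155 and miR-146a are induced by activation.

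The mature sequences of the miRNAs on which the comparison turns are given 5′ to 3′ from RefSeq (GRCh38.p14), with the seed in capitals. The miR-29 members are shown because miR-29a and miR-29c were called in opposite directions although they carry the same seed, which miR-29b, not called, shares.
miR-29a: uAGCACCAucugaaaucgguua
miR-29b: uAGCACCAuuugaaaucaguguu
miR-29c: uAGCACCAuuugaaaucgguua
The next 4 are miRNAs higher in Jurkat together with miR-92a, which shares the seed of miR-363 and was not called under either scaling.
miR-363: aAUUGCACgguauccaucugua
miR-92a: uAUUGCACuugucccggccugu
miR-181a: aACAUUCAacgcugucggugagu
miR-223: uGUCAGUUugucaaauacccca
The let-7 entries and the pair of miR-221 and miR-222 hold members with 1 seed of which some were called for Jurkat under both scalings and others, let-7a and miR-222, were not.
let-7a: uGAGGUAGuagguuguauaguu
let-7b: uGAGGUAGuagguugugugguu
miR-98: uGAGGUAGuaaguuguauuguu
miR-221: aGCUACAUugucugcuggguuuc
miR-222: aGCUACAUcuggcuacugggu
The last 3 were higher in Raji.
miR-21: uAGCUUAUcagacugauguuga
miR-155: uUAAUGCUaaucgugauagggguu
miR-146a: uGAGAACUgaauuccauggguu

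The panel holds 654 human miRNA entries, and their raw counts summed to 130048 in Jurkat and 66892 in Raji. The 6 positive controls, synthetic targets added in equal amount to each sample, summed to 26312 and 22360. Per positive control count, the human miRNA total was therefore 1.65-fold higher in Jurkat. It was 1.86-fold higher with the mean negative control of each line, given below, subtracted from the human counts. More miRNA per cell and a larger miRNA share of the loaded RNA cannot be told apart in bulk samples such as these. Counts were compared in 2 ways. Scaling to total human counts, which compares shares of the miRNA pool, divides the raw Jurkat over Raji ratio by 1.94. Scaling to the positive controls, which compares counts at equal RNA input and assay yield, divides it by 1.18. The choice moves every log2 ratio by 0.72.

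The 8 negative control probes, which have no target, averaged 22.8 counts in Jurkat (SD 6.14, range 11 to 30) and 23.1 in Raji (SD 11.4, range 12 to 47). The background limit of each line, the mean plus 2 SD, was 35.0 counts in Jurkat and 45.9 in Raji. Of the 654 miRNAs, 234 exceeded the limit in at least 1 of the lines and were compared. Both lines exceeded it for 106 of them, Jurkat alone for 123 and Raji alone for 5. The edge was crowded in Jurkat, where 15 miRNAs had 36 counts and 13 had 35, against 3 with 46 and 6 with 45 in Raji. Because the limit was higher and the total lower in Raji, a miRNA above the limit in Jurkat alone may still be present in Raji.

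A miRNA was called higher in a line where the ratio was at least 2 and its exact 95% interval lay on the same side of 1. Intervals cover counting error only and leave out the variation between cultures and between extractions. Scaled to the total, 23 of 234 miRNAs were called higher in Jurkat (9.83%) and 45 higher in Raji (19.2%). Scaled to the positive controls, 53 were called higher in Jurkat (22.6%) and 6 higher in Raji (2.56%). All 23 calls for Jurkat at the total were among the 53, and all 6 calls for Raji at the positive controls were among the 45. This had to be so, because each scaling divides the same raw ratio by a fixed number, and it is no check of either scaling. These 23 and 6 miRNAs, called in the same direction under both scalings, are described in turn, with the others summarized. The log2 ratio of Jurkat over Raji had a median over the 234 of -0.52 at the total and 0.20 at the positive controls.

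**Figure D1:**
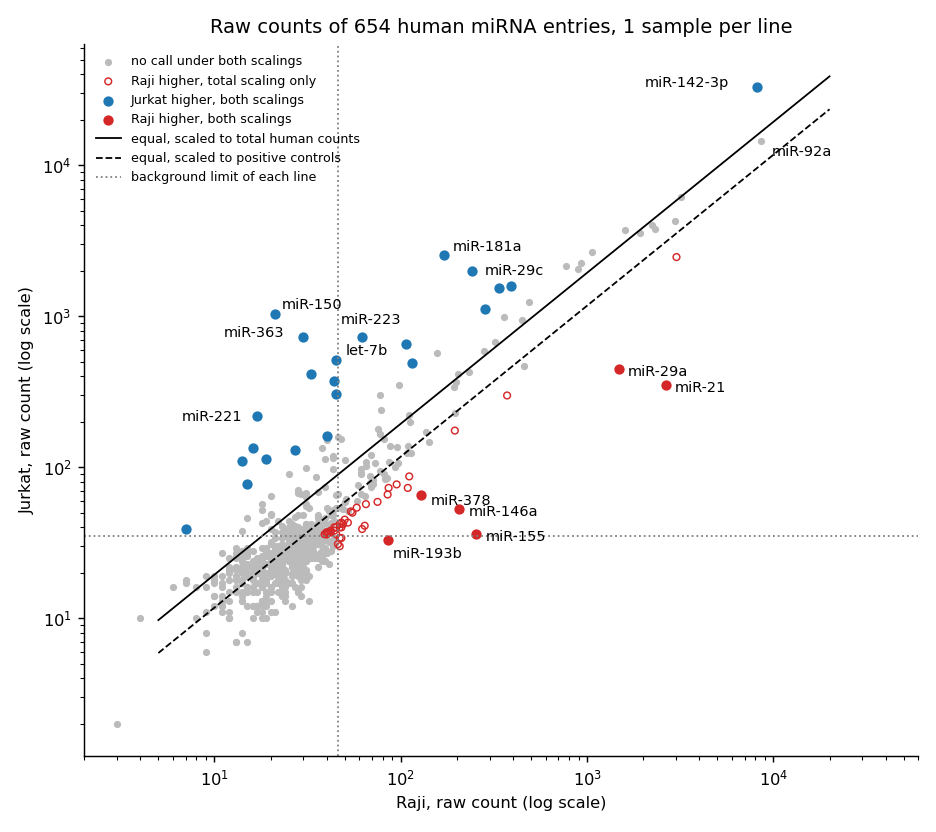
Raw counts of the 654 human miRNAs in Raji (horizontal axis, log scale) and Jurkat (vertical axis, log scale), 1 point per miRNA. The solid and dashed lines mark equal levels after scaling to total human counts and to the positive controls, and dotted lines mark the background limits of 45.9 and 35.0. Filled blue and red points are the 23 and 6 miRNAs called under both scalings, and most open red points, called for Raji at the total only, lie near the limits.

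The other calls for Raji at the total were mostly of low counts. The median count over all 45 was 41 in Jurkat and 50 in Raji, and 27 of the 45 had at most 60 counts in both lines. In 13 of the 45, Raji itself did not exceed its limit. Among the 420 miRNAs below the limit in both lines, the median raw ratio was 1, which becomes a log2 ratio of -0.96 at the total, and the negative controls were 1.98-fold higher in Raji on that scale. A background equal to the mean negative control at every human entry would make up 11.4% of the Jurkat total and 22.6% of the Raji total. Over the 28 miRNAs with 200 or more counts in both lines, the median log2 ratio was 0.11 at the total and 0.84 at the positive controls.

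miR-150, miR-181a and miR-342-3p, all known from lymphocytes, were higher in Jurkat. miR-150 had 1030 counts in Jurkat and 21 in Raji, where it was below the limit. The ratio was 25.2 at the total (16.4 to 40.9), and against the Raji limit miR-150 was at least 11.6-fold higher in Jurkat. In Meg-01, U937 and K562 the miRNA stood at 118 to 191 per 1000000 human counts, against 7920 in Jurkat and 314 in Raji, and it was below the limit in all 4 lines other than Jurkat. miR-181a had 2551 counts in Jurkat and 171 in Raji, both far above background, a ratio of 7.67 (6.57 to 9.01). It was the entry of rank 10 in Jurkat and of rank 35 in Raji. miR-342-3p, from an intron of EVL and enriched in lymphocytes, had 652 and 107 counts and a ratio of 3.13 (2.55 to 3.88).

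Other members of the same lists differed less. In the miR-181 family, the entry shared by miR-181b and miR-181d had 158 counts in Jurkat and 46 in Raji, and miR-181c had 65 and 20. Only miR-181a of these 3 was called for Jurkat at the total, against 9.83% of all 234, and all 3 were called for Jurkat at the positive controls, against 22.6%. Of these, miR-181c was below the limit in Raji and entered the comparison through Jurkat alone. The family made up 2.13% of human counts in Jurkat and 0.354% in Raji. The ratio of miR-181a to the miR-181b and miR-181d entry, which does not depend on scaling, was 16.1 in Jurkat and 3.72 in Raji. It was thus 4.34-fold higher in Jurkat (2.95 to 6.30), or 2.89-fold with the mean negative control subtracted, since the shared entry lay at the limit in Raji. Of the 7 mature lymphocyte miRNAs, 3 exceeded the limit in at least 1 line. Called for Jurkat were miR-150 and miR-342-3p at the total, against 9.83% of all 234, and all 3 at the positive controls, against 22.6%. The third was miR-151-5p, with 57 and 18 counts, at least 1.06-fold higher in Jurkat at the positive controls. All 3 exceeded the limit in Jurkat and 1 in Raji, so that the others entered the comparison through Jurkat alone.

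miR-363 was the next highest ratio. It is the last hairpin of the miR-106a-363 cluster on the X chromosome, a paralog of miR-17-92, and acts through the seed of miR-92a. It had 732 counts in Jurkat and 30 in Raji, a ratio of 12.6 (8.72 to 18.7) and at least 8.21-fold against the limit. The remaining lines held 219 to 295 per 1000000, all below their limits, against 5629 in Jurkat and 448 in Raji. Its neighbor miR-18b had 155 and 48 counts and a ratio of 1.66 (1.19 to 2.35). The miR-363 to miR-18b ratio was 4.72 in Jurkat, at least 4.94-fold above Raji with miR-363 at the limit there. Mature sequences of the cluster span chrX:134169382-134170266.

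The miR-17-92 cluster, an oncogenic cluster activated by MYC, showed no call in either line. miR-92a had 14415 counts in Jurkat and 8533 in Raji, 11.1% and 12.8% of the totals. The ratio was 0.869 at the total (0.846 to 0.893) and 1.44 at the positive controls. The entry shared by miR-20a and miR-20b had 6179 and 3201 counts, a ratio of 0.993 (0.951 to 1.04). miR-19b had 4312 and 2958 counts, a ratio of 0.750 (0.715 to 0.786), in the direction of Raji but short of 2-fold. All 6 entries exceeded the limit in both lines, and together they held 19.7% of human counts in Jurkat and 22.5% in Raji. The members kept similar proportions, with miR-92a at 56.3% of the cluster counts in Jurkat and 56.6% in Raji. Entries for miR-92a, miR-19b, miR-20a with miR-20b, and miR-106a with miR-17 cannot be assigned to 1 of the 2 paralog clusters.

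miR-223, a regulator of granulocyte and monocyte maturation that is also described in T-cell leukemia, had 732 counts in Jurkat and 62 in Raji. The ratio was 6.07 (4.68 to 8.003), and both lines exceeded their limits. Raji was the lowest and Jurkat the next lowest of the 5 lines, with 927 and 5629 per 1000000 against 16004 to 29791 in Meg-01, U937 and K562. miR-142-3p, made throughout the blood lineage, was the most abundant miRNA in Jurkat and ranked after miR-92a in Raji. Its 32907 and 8151 counts were 25.3% and 12.2% of the totals, with a ratio of 2.08 (2.03 to 2.13). The other strand of the same hairpin, miR-142-5p, had 984 and 357 counts and a ratio of 1.42 (1.25 to 1.60). The 3p to 5p ratio was 33.4 in Jurkat and 22.8 in Raji, a 1.46-fold difference (1.29 to 1.66).

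**Figure D2:**
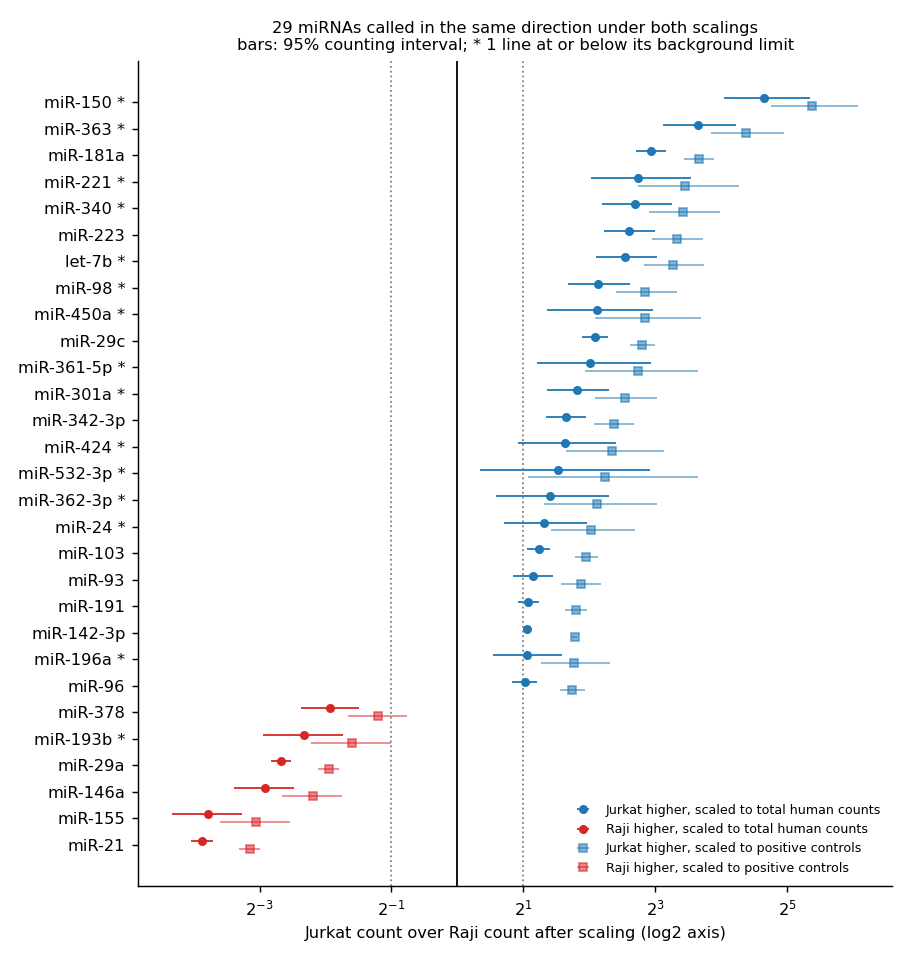
Jurkat over Raji ratios (log2 axis) of the 29 miRNAs called in the same direction under both scalings, with 95% counting intervals. Circles are scaled to total human counts and squares to the positive controls, blue for the 23 higher in Jurkat and red for the 6 higher in Raji, and an asterisk marks the 15 miRNAs with 1 line at or below its background limit. Ratios at the total run from 25.2 for miR-150 to 0.0681 for miR-21.

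In Raji, miR-21, miR-155 and miR-146a, which are induced in activated lymphocytes, had the highest ratios against Jurkat. miR-21, an oncogenic miRNA that lowers PDCD4, had 350 counts in Jurkat and 2643 in Raji. It was 14.7-fold higher in Raji at the total (13.1 to 16.5) and 8.89-fold at the positive controls (7.95 to 9.96). miR-21 ranked 6 in Raji and 38 in Jurkat. Jurkat was the lowest of the 5 lines with 2691 per 1000000, Raji the highest with 39512, and the other 3 held 7158 to 15092. miR-155, processed from the BIC transcript and required for germinal center responses, had 36 and 254 counts. It was 13.7-fold higher in Raji (9.65 to 20.0), or 8.30-fold at the positive controls. The Jurkat count exceeded the limit by 1 count, so that its level there was close to background. With the mean negative control subtracted, the fold at the total was 38.1.

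miR-146a, a feedback inhibitor of NF-κB signaling through TRAF6 and IRAK1, had 53 counts in Jurkat and 206 in Raji, 7.56-fold higher in Raji at the total (5.56 to 10.4), or 13.2-fold with the mean negative control subtracted. Its paralog miR-146b-5p was below the limit in both lines, with 24 and 31 counts. Of the 7 miRNAs listed for immune activation, 6 exceeded the limit in at least 1 line, and miR-21, miR-155 and miR-146a were called for Raji under both scalings, against 2.56% of all 234. The median log2 ratio of the list was -1.60 at the total and -0.87 at the positive controls. miR-132 and miR-212, from 1 transcript induced by CREB, did not follow them. miR-132 had 69 and 36 counts and miR-212 had 37 and 23, and neither was called under either scaling. miR-9, with 573 and 157 counts, was 1.88-fold higher in Jurkat at the total (1.57 to 2.25) and was called for Jurkat at the positive controls.

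A further 3 miRNAs were higher in Raji under both scalings. They were miR-29a, miR-193b and miR-378. miR-193b, a tumor suppressor in several cancers, had 33 counts in Jurkat, below the limit, and 85 in Raji, at least 4.72-fold higher at the total. miR-378, from an intron of PPARGC1B, had 66 and 129 counts. It was 3.80-fold higher in Raji at the total (2.80 to 5.19) and 2.30-fold at the positive controls (1.70 to 3.14). All 6 were highest in Raji of the 5 lines, and in 5 of them Jurkat was the lowest, although the Jurkat count of miR-193b was below the limit. The exception was miR-146a, which was lowest in K562, where it was below the limit.

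The miR-29 family, which lowers collagens, MCL1 and DNA methyltransferases, was split between the lines. miR-29a had 451 counts in Jurkat and 1483 in Raji, 6.39-fold higher in Raji at the total (5.75 to 7.12) and 3.87-fold at the positive controls. miR-29c had 1989 counts in Jurkat and 242 in Raji, a ratio of 4.23 (3.70 to 4.85). miR-29b had 147 and 142 counts and was not called. The 2 miRNAs with opposite calls have the same seed and differ by a single base, C10U from miR-29a to miR-29c, counted from the 5′ end. How far each reporter also counts the other miRNA was not tested.

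miR-29c made up 76.9% of the family counts in Jurkat (75.2 to 78.5) and 13.0% in Raji (11.5 to 14.6), whereas miR-29a made up 17.4% and 79.4%. The miR-29c to miR-29a ratio was 4.41 in Jurkat and 0.163 in Raji, a 26.99-fold difference (22.7 to 32.2) that no scaling can change. Summed over the family, the lines were closer, with 2587 and 1867 counts, or 1.99% and 2.79% of the totals. The summed ratio was 0.713 at the total (0.671 to 0.757) and 1.18 at the positive controls. The 2 miRNAs come from different loci, miR-29a with a copy of miR-29b at chr7:130876748-130877530 and miR-29c with the other copy at chr1:207801865-207802513. Because the mature miR-29b of both copies has 1 sequence, its counts cannot be divided between the loci.

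**Figure D3:**
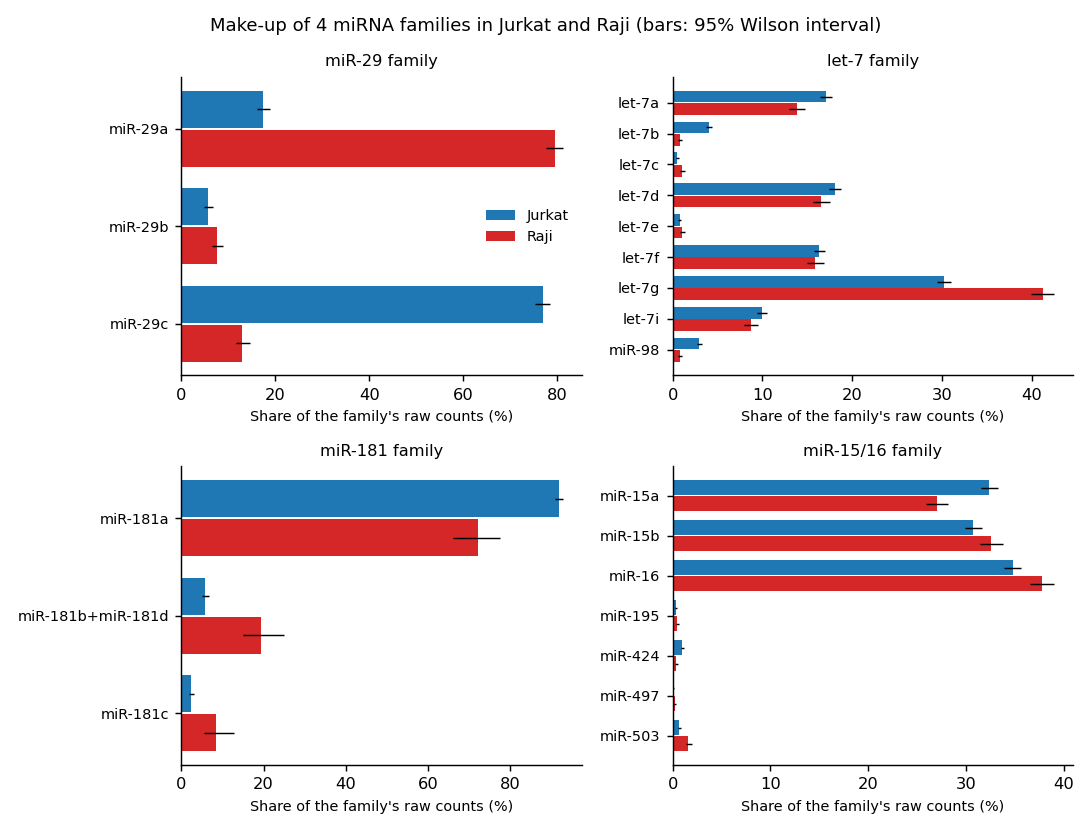
Share of the raw counts of a family held by each member (horizontal axes, percent) in Jurkat (blue) and Raji (red), with 95% Wilson intervals, for the miR-29, let-7, miR-181 and miR-15/16 families. miR-29c held 76.9% of the miR-29 counts in Jurkat and miR-29a 79.4% in Raji, while miR-15a, miR-15b and miR-16 held between 27.04% and 37.8% each in both lines. Shares within a line also depend on how well each reporter binds.

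The let-7 family, which represses RAS, HMGA2 and MYC, held 9.67% of human counts in Jurkat and 8.35% in Raji. All 9 members exceeded the limit in Jurkat and 7 in Raji, and 2 were called at the total, both for Jurkat, against 9.83% of all 234. At the positive controls 5 of the 9 were called for Jurkat, against 22.6%. let-7b had 512 counts in Jurkat and 45 in Raji, at least 5.74-fold higher in Jurkat. miR-98 had 374 and 44 counts, at least 4.19-fold higher. Both Raji values lay within 2 counts of the limit of 45.9. let-7a, which differs from let-7b by A17G and A19G, had 2143 and 774 counts and a ratio of 1.42 (1.31 to 1.55). let-7g, the most abundant member in both lines, had 3804 and 2302 counts and a ratio of 0.850 (0.807 to 0.896). With the Raji limit in place of the count below it, the let-7b to let-7a ratio was at least 4.03-fold higher in Jurkat, and the miR-98 to let-7f ratio at least 3.52-fold. Hairpins of both pairs lie side by side on chromosomes 22 and X, but let-7a and let-7f are also made at other loci.

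The miR-15/16 family, which lowers BCL2 and cyclins, was nearly level. It held 8.90% of human counts in Jurkat and 8.84% in Raji, a summed ratio of 1.01 (0.975 to 1.04) at the total and 1.66 at the positive controls. miR-16 had 4025 and 2234 counts, miR-15b 3560 and 1927, and miR-15a 3746 and 1599, and none was called. miR-424, a member that is raised during monocyte maturation, had 114 and 19 counts and was at least 1.28-fold higher in Jurkat. Its neighbor on the X chromosome, miR-503, had 77 and 95 counts and was called for Raji at the total, but not at the positive controls. The miR-424 to miR-503 ratio was 1.48 in Jurkat, at least 3.07-fold above Raji with miR-424 at the limit there. miR-450a of the same cluster, with 135 and 16 counts, was at least 1.51-fold higher in Jurkat. These counts are low, and miR-424 and miR-450a were below the limit in Raji.

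miR-221 and miR-222, which target KIT and CDKN1B and are transcribed together at chrX:45746180-45747094, differed in their calls. miR-221 had 220 counts in Jurkat and 17 in Raji, at least 2.47-fold higher in Jurkat. miR-222 had 67 and 46 counts, a ratio of 0.749 (0.507 to 1.12), and was not called. The miR-221 to miR-222 ratio was 3.28 in Jurkat, at least 3.29-fold above Raji with miR-221 at the limit there. The background, about 23 counts per probe in each line, takes up a large part of the miR-222 count and all of the miR-221 count in Raji.

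In the miR-106b-25 cluster, within an intron of MCM7, 1 of 3 members, miR-93, was called for Jurkat at the total and 2 at the positive controls, against 9.83% and 22.6% of all 234. miR-93 had 494 and 115 counts and a ratio of 2.21 (1.80 to 2.73). miR-25, with 2664 and 1068 counts, had a ratio of 1.28 (1.19 to 1.38), and miR-106b, with 681 and 319 counts, a ratio of 1.10 (0.960 to 1.26). The miR-93 to miR-25 ratio was 1.72-fold higher in Jurkat (1.38 to 2.15). miR-103, located in PANK genes, had 1534 and 336 counts and a ratio of 2.35 (2.09 to 2.65). miR-107 differs from it by G22C and had 116 counts in Jurkat and 43 in Raji, below the limit. It was at least 1.30-fold higher in Jurkat at the total, where it was not called.

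Of the remaining miRNAs called for Jurkat, miR-340 had 417 and 33 counts and was at least 4.68-fold higher. miR-301a, of the miR-130 seed family, had 307 and 45 counts and was at least 3.44-fold higher. miR-130b of that family, with 299 and 77 counts, had a ratio of 1.997 (1.55 to 2.60), just outside the rule. miR-361-5p had 110 and 14 counts and was at least 1.23-fold higher. miR-191, with 1589 and 388 counts, had a ratio of 2.11 (1.88 to 2.36), and miR-96, with 1116 and 283, a ratio of 2.03 (1.78 to 2.32). miR-183, of the same transcript as miR-96, had 151 and 40 counts and was below the limit in Raji. It was at least 1.69-fold higher in Jurkat at the total, where it was not called.

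The last 4 calls for Jurkat rested on low counts in Raji. miR-24 had 130 and 27 counts and was at least 1.46-fold higher in Jurkat. miR-196a, encoded in the HOX clusters, had 161 and 40 counts and was at least 1.81-fold higher, and its ratio of 2.07 lay just inside the rule. For miR-362-3p, with 77 and 15 counts, and miR-532-3p, with 39 and 7, the Raji limit permits equal levels at the total and no fold is given. At the positive controls miR-362-3p was at least 1.43-fold higher in Jurkat, and the limit still permits equal levels of miR-532-3p. Raji was below its limit in 14 of the 23 calls for Jurkat. Against that limit, 7 of these 14 were at least 2-fold higher at the total.

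RefSeq gave genome positions for 203 of the 234 miRNAs, of which 27 (13.3%) are encoded only on the X chromosome. Of the 22 located miRNAs higher in Jurkat under both scalings, 9 (40.9%) are encoded only there. They are miR-221, miR-223, miR-361-5p, miR-362-3p, miR-363, miR-424, miR-450a, miR-532-3p and miR-98. Of the 27, 4 were called for Raji at the total, against 19.2% of all 234, and none of them under both scalings. The median log2 ratio of the 27 was 0.30 at the total and 1.03 at the positive controls, against -0.52 and 0.20 over all 234. Neighbors in 1 cluster are not independent, Raji was below its limit for 8 of the 9, and these shares were not tested.

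**Figure D4:**
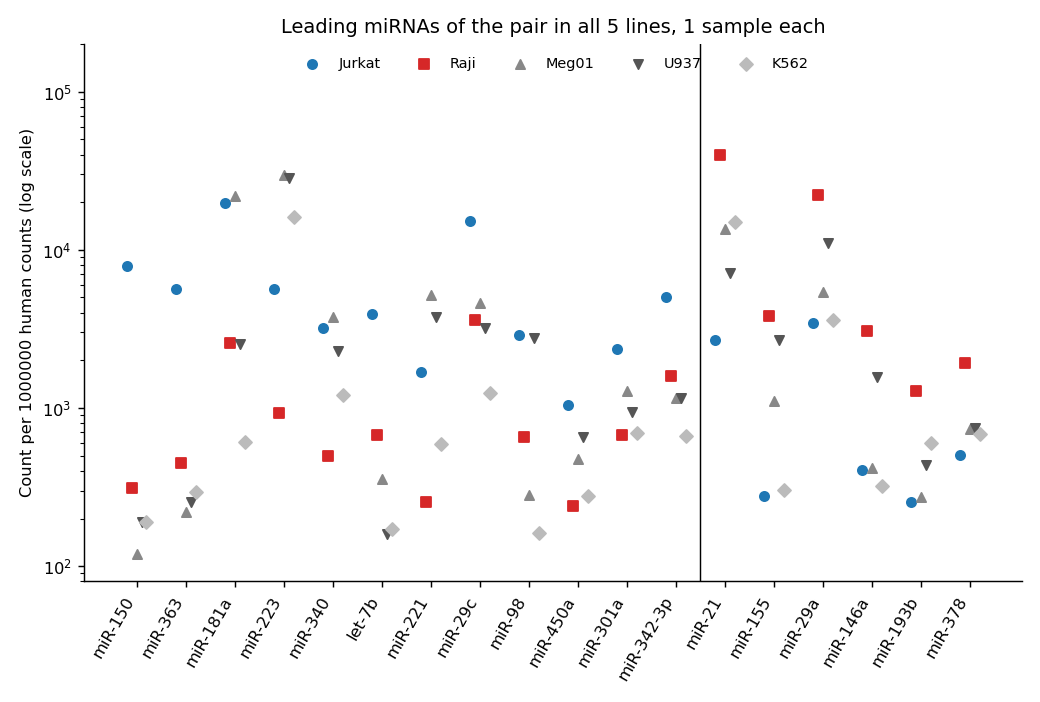
Counts per 1000000 human counts (log scale) in the 5 lines, 1 sample each, for the 12 miRNAs with the highest lower interval bound in Jurkat (left of the vertical line) and the 6 higher in Raji under both scalings (right). Raji (red squares) is the highest of the 5 lines for all 6 on the right, while Jurkat (blue circles) is the highest for miR-150 and miR-363 and not for miR-223, where Meg-01, U937 and K562 exceed it.

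Set against the other 3 lines, the 23 miRNAs higher in Jurkat were of several kinds. Jurkat was the highest of all 5 lines for 11 of them and Raji was the lowest for 13, but in 9 of these 13 Raji was below its limit, so that its place there is an order of background counts. In the other 4, miR-93, miR-96, miR-191 and miR-223, Raji exceeded its limit. Of these, Jurkat was the highest line for miR-93. miR-29c, at 15294 per 1000000 in Jurkat, was above the 1235 to 4620.4 of the other 3 lines, and Raji lay within that range at 3618. miR-181a stood at 22027 per 1000000 in Meg-01 and 19616 in Jurkat, against 2556 in Raji. U937 held 2531 and K562 held 608.

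The calls in other miRNA lists were set against the shares over all 234, which were 9.83% for Jurkat and 19.2% for Raji at the total, and 22.6% and 2.56% at the positive controls. In the miR-30 family, 3 of 5 members, miR-30a, miR-30d and miR-30e, were called for Raji at the total and none at the positive controls. miR-30a had 73 and 109 counts and was 2.90-fold higher in Raji at the total (2.14 to 3.96) and 1.76-fold at the positive controls. Of 18 miRNAs described as repressed by MYC, 2 were called for Jurkat and 3 for Raji at the total, and 4 and 2 at the positive controls. Their summed share was 16.2% in Jurkat and 16.4% in Raji. Of 9 members above background in the T-cell leukemia and HOXA list, miR-223, miR-196a and miR-363 were called for Jurkat under both scalings, against 9.83% of all 234. Of these, miR-196a and miR-363 were below the limit in Raji and entered through Jurkat alone. miR-10a was called for Raji at the total and not at the positive controls. The 5 members above background of the germinal center and B-cell list gave no call for Jurkat and 2 for Raji at the total, miR-155 and miR-125b, and 1 call for each line at the positive controls. miR-125b had only 41 and 64 counts and was not called at the positive controls.

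**Figure D5:**
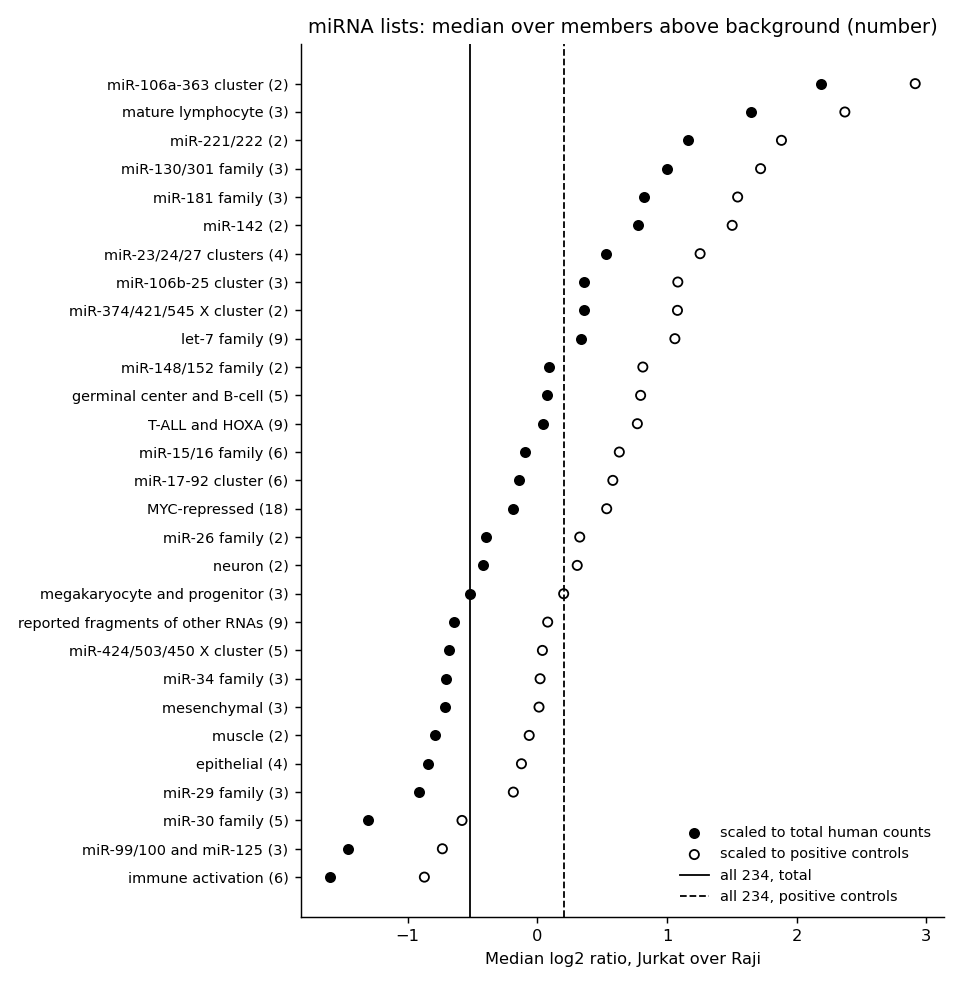
Median log2 ratio of Jurkat over Raji (horizontal axis) over the members of each miRNA list that exceeded the limit in at least 1 line, with their number in parentheses. Filled points are scaled to total human counts and open points to the positive controls, and vertical lines mark the medians of all 234 miRNAs, -0.52 and 0.20. At the total, the immune activation list lies lowest at -1.60. Some lists have members that mostly exceeded the limit in Jurkat alone, and how far this moved their medians was not tested. Such lists lie on both sides of -0.52 at the total, with 1.65 for mature lymphocyte and -0.70 for the miR-34 family.

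The most abundant miRNAs were largely shared. The 10 highest made up 60.1% of human counts in Jurkat and 54.7% in Raji, and 8 miRNAs were among the 10 of both lines. miR-25 and miR-181a were among the 10 only in Jurkat, and miR-21 and miR-720 only in Raji. miR-720, since described as a fragment of a transfer RNA, had 2469 and 3017 counts, 1.90% and 4.51% of the totals. It was 2.38-fold higher in Raji at the total (2.25 to 2.51) and 1.44-fold at the positive controls. The 16 entries since described as fragments of other RNAs held 2.84% of human counts in Jurkat and 5.83% in Raji. The high calls for Raji at the total also included miR-603, with 299 and 372 counts, and miR-1307, with 39 and 62, at 2.42-fold and 3.09-fold, and miR-508-3p, with 30 and 47. None of these 3 was called at the positive controls.

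The labels were set against miRNAs that mark cell types. Of the blood cell miRNAs, miR-142-3p, miR-142-5p, miR-155, miR-181a and miR-223 exceeded the limit in both lines and miR-150 in Jurkat only. None of them marks T-cells or B-cells alone, so these data do not test which lineage each line belongs to. The 3 erythroid entries on the panel, among them miR-451 with 19 and 18 counts, were below the limit in both lines. The liver miRNA miR-122 had 36 and 35 counts, and 4 of 7 epithelial miRNAs exceeded the limit, with at most 48 counts for miR-200b in Raji. Other lists reached somewhat higher counts. Of 6 muscle miRNAs, miR-206 exceeded the limit in both lines, with 90 and 81 counts, and miR-208a in Jurkat alone, with 48. Of 4 neuronal miRNAs, miR-128, with 86 and 35 counts, and miR-137, with 38 and 44, exceeded it in Jurkat alone. Of 5 mesenchymal miRNAs, 3 exceeded it in Jurkat and 1 in Raji, the highest being miR-214 with 57 and 65 counts. The part of these RNAs or of probe background in the results was not tested. miR-200b and miR-203 were called for Raji at the total and not at the positive controls, on counts of 40 and 48, and of 40 and 44, against 19.2% of all 234 at the total. Of the 5 housekeeping mRNAs on the panel, 4 lay toward Raji under both scalings. RPL19, GAPDH, RPLP0 and B2M had Jurkat over Raji ratios of 0.377 to 0.542 at the total and 0.624 to 0.896 at the positive controls. ACTB, with 2684 raw counts in Jurkat and 1344 in Raji, had ratios of 1.03 and 1.70.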

How the data were processed

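Raw counts of 753 probes per line were used as deposited by the authors, who read them on the nCounter system without scaling or background subtraction. A second deposited table gives signal after background subtraction, from which a fixed number had been taken off every raw count of a line (16.2 in Jurkat, 23.1 in Raji, with values under 0 set to 0). It served as an alternative. The kit version of these samples is not given in the sources used here, since the methods name 2 versions. Counts were scaled to total human counts and to the positive controls. Ratios have exact conditional binomial (Clopper-Pearson) 95% intervals and comparisons of within-line ratios exact conditional odds ratio intervals. Shares have Wilson intervals. Where a line was below its limit, "at least" uses the limit in place of its count. Calculations were tested on simulated data. Python 3.11.15, scipy 1.17.1, pandas 2.3.3 and statsmodels 0.14.6 were used.

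Members and lists were chosen with earlier results of these data known. Named miRNAs are the 12 called in each direction with the interval bound farthest from 1, the 10 most abundant of each line, list members above background, and those called in opposite directions within a family or cluster. The remaining calls under both scalings, the within-line ratios and their background subtraction, the sequence pairs, the X chromosome and the cutoffs of 60 and 200 counts were chosen after the values were seen. miRNA names were matched to RefSeq, with arms assigned by hand where the panel gives none. Alternatives were other scalings, other background limits, subtraction and the deposited signals.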

Additional observations from a re-analysis of the deposited data

Results flagged for a closer look

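The panel also holds 34 probes for Epstein-Barr virus miRNAs, which the comparison of human miRNAs did not use. Of these, 18 exceeded the limit in at least 1 line and could be called. Under both scalings 10 of the 18 were called for Raji, against 2.56% of the 234 human miRNAs, and 0 for Jurkat. All 10 were below the limit in Jurkat and entered through Raji alone, the line for which they were called. Of the 234 human miRNAs, 5 entered through Raji alone and 123 through Jurkat alone. The share of the 18 and that of the 234 are therefore not directly comparable. BHRF1-2 had 28 counts in Jurkat and 296 in Raji, BART8 had 19 and 155, and BART22 had 3 and 133. Others did not differ in this way. BART16 had the highest count in Raji, with 338 in Jurkat and 329 in Raji, and BHRF1-1 had 100 and 70, BHRF1-3 147 and 88, and BART9 134 and 113. Of the 46 probes for other viruses, 10 exceeded the limit in at least 1 line and 0 were called under both scalings in either direction. Above the limit were 7 Epstein-Barr virus probes in Jurkat and 16 in Raji, and 10 and 3 probes for other viruses.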

How the results depend on the processing

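Scaling and the background limit both moved the numbers of calls. No named miRNA called at the total reversed its direction under background subtraction. The other scalings, with factors from 0.997 to 2.02, could not reverse a 2-fold call at the total, and a background limit changes no ratio. From 23 for Jurkat, 45 for Raji and a median log2 ratio of -0.52, the positive controls gave 53, 6 and 0.20, the housekeeping mRNAs 68, 5 and 0.44, and no scaling 68, 5 and 0.44. The total without the 5 most abundant miRNAs gave 22 for Raji and a median of -0.32. With the limit at the highest negative control the median was -0.64, with the limit at their mean it was -0.83 with 180 calls for Raji, and without a limit -0.84 with 238. Requiring both lines above the limit left 9 and 27. Subtracting the mean negative control gave a median of -0.24, and the deposited signals -0.045. Each kept 12 of the 23 calls for Jurkat. The deposited signals take 16.2 off the Jurkat counts, less than its mean negative control of 22.8. Subtraction with the positive controls, chosen after seeing the data, gave 42, 9 and 0.65. The geometric mean of the 100 highest miRNAs, the scaling of the methods, gave 21 and 51, without miR-96 and miR-196a. Of the 23 and 6 miRNAs called under both scalings, 11 and 5 were called in every setting that tested them. After subtraction miR-150 was not called, because its Raji value was set to 1 and its interval widened. miR-142-3p and miR-191 fell below 2-fold, with log2 ratios of 0.89 and 0.97, and so did miR-96, at 1.93-fold. Among the 14 miRNAs called under both scalings and above the limit in both lines, subtracting the mean negative control moved the fold by over 1.5 times for miR-155 (38.1) and miR-146a (13.2). miR-378 fell just below 2-fold without scaling, with -0.97, and with the housekeeping mRNAs, with -0.96. No paired analysis was possible because each line has 1 sample. No value here measures the spread between cultures, and counts near 23 cannot be told from background in either line.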
